A study of Rattus norvegicus with 6 samples.

Results

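Lilrb4, Tlr2, Cd68, Lgals3 and Cd14, genes known from macrophages, were followed across cultured rat muscle stem cells. They were chosen by symbol from the array's platform annotation, partly because their signal was high in cells given cholesterol, so the cholesterol values are a description and carry no test. All 5 were found, each with 1 probe set, among 18166 named genes, and all 5 passed a filter on mean signal that 11540 genes passed. Lilrb4 passed only through its high signal in the cells given cholesterol or fatty acid. Its ranks and counts among the 11540 genes are therefore a description too. The name macrophage-type refers to where these genes are best known. With cholesterol, 4 of the 5 were at least 2-fold above both controls (0.381% of the 11540 genes). With fatty acid 1 was (0.641%), and Cd14 was so with neither.

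The cells were skeletal muscle-derived stem cells of male rats, isolated by plating and grown in flasks or 6-well plates, and total RNA was read on Affymetrix Rat Gene 2.0 ST arrays. The 6 libraries, 1 array each, are titled cholesterol, fatty acid, OZ serum, LZ serum, high glucose control and low glucose control. Cholesterol was given at 100 mg/dl with cyclodextrin as carrier. The other lipid was sodium palmitate, for which the labels give no dose. The titles OZ and LZ are used as given, no age is stated, and the labels leave unstated which control goes with which treatment, whether the controls held the carrier and whether animals were pooled. Each lipid library was therefore set against both controls, and carrier and lipid cannot be told apart. With 1 array per group no value has a replicate error, no test was possible, and every difference describes these libraries.

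Macrophages that take up more cholesterol than they can export turn into lipid-laden foam cells, the hallmark cells of atherosclerotic plaques. Tlr2 and Cd14 serve innate immune sensing: TLR2 pairs with TLR1 or TLR6 to bind bacterial lipoproteins, and CD14 hands lipopolysaccharide to TLR4 and its partner MD-2 (Ly96) and lipoproteins to TLR2. LILRB4 is a surface receptor whose cytoplasmic inhibitory motifs (ITIMs) recruit phosphatases, CD68 is a heavily glycosylated protein of the endosome and lysosome membrane, and galectin-3, the product of Lgals3, is a sugar-binding lectin that is also made by fibroblasts and epithelia. In bulk RNA, a larger share of cells with a transcript and more transcript per cell cannot be told apart.

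Promoter sequences, from 250 bases before to 50 after the RefSeq gene start in assembly GRCr8, were found for 4 of the 5 genes. Those of Lilrb4, Tlr2 and Cd68, the genes that lead the cholesterol comparison, are shown 5′ to 3′ on the gene's strand, which is the minus strand for each. Capitals mark the matches to the motifs searched, on both strands: NF-kB (GGG and TTTCC with 2 free bases between them, and a looser form, GGG and TTCC with 3 free bases, that includes the first), AP-1 (TGANTCA), C/EBP (TTGCNNAA), PU.1 (GAGGAAG), the LXR core (AGGTCA) and its direct repeat DR4 with 4 free bases, which includes the core, a sterol element (TCACNCCAC) and the lysosomal CLEAR element (TCACGTGA).
Lilrb4, chr1:78853203-78853502: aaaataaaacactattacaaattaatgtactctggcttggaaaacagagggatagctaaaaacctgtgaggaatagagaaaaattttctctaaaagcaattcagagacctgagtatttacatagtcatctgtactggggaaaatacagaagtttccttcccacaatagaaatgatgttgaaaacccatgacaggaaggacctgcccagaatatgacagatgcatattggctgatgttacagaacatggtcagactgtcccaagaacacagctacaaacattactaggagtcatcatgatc
Tlr2, chr2:171504508-171504807: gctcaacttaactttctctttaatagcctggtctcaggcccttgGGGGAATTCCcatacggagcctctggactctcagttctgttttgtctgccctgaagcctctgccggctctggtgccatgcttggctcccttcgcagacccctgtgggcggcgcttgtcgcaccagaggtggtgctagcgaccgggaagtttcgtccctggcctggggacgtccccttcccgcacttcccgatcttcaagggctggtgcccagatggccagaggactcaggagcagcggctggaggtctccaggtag
Cd68, chr10:54882392-54882691: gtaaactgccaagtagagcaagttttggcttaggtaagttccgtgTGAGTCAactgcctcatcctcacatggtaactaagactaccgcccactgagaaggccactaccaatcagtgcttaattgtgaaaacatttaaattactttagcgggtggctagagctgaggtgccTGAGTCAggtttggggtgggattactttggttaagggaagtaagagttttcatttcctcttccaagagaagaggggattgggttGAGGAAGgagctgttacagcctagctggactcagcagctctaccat

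The Tlr2 window held 1 match to the looser NF-kB motif, 206 bases before the start, and 5.37% of 33469 rat promoter windows of this length hold one. The Cd68 window held AP-1 matches 205 and 80 bases before the start, a motif found in 7.33% of windows, and a PU.1 match 4 bases after it. The Cd14 window (GRCr8, chromosome 18, 28611109 to 28611408) held PU.1 matches 140 and 105 bases before the start, and PU.1 letters occur in 12.4% of windows. None of the motifs searched was found in the Lilrb4 window, and the LXR DR4, sterol and CLEAR letters were in none of the 4 windows. A match describes letters only and does not show binding.

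The median intensity over all 36685 probe sets ran from 104.6 to 109.2 across the 6 arrays, so the libraries were read as already scaled to each other. The median of all values, an intensity of 107, serves below as a mark of dim signal. Intensities of different genes are not comparable, because each probe set has its own response.

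**Figure D1:**
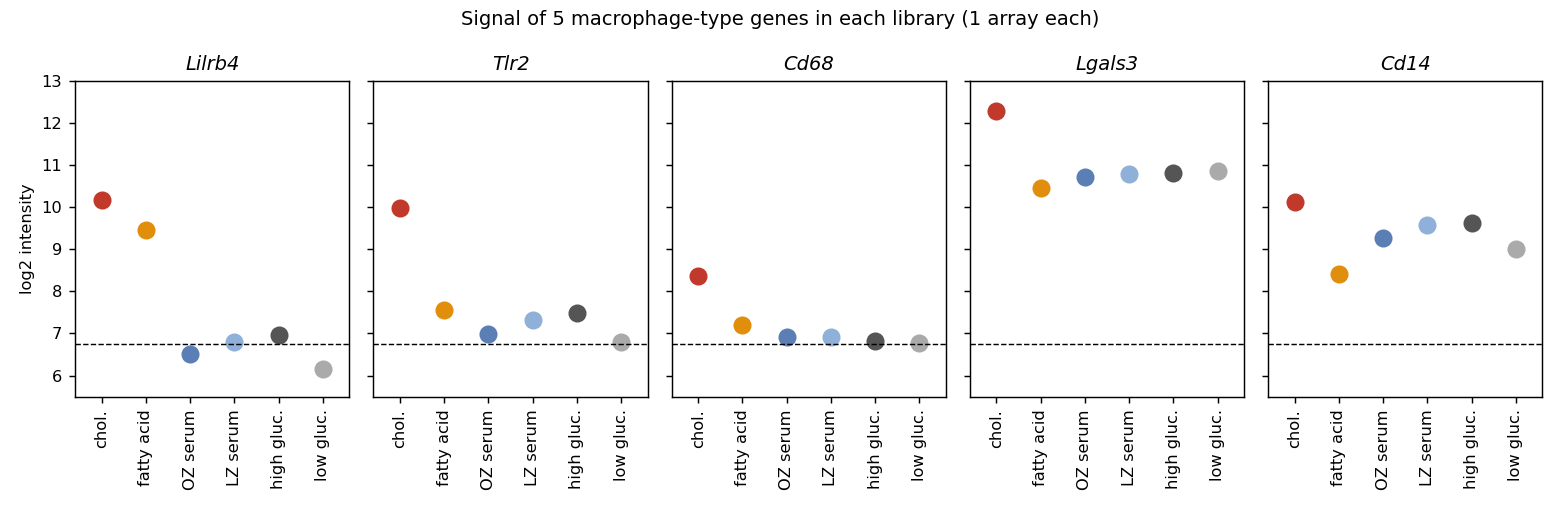
Log2 intensity (vertical axis) of Lilrb4, Tlr2, Cd68, Lgals3 and Cd14 in the cholesterol, fatty acid, OZ serum, LZ serum, high glucose control and low glucose control libraries, 1 point per array, with a dashed line at the median of all values (6.74). Cholesterol is the highest point in all 5 panels, the fatty acid point is far above the rest only for Lilrb4, and it is the lowest for Lgals3 and Cd14; heights are not comparable between panels.

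The inhibitory receptor Lilrb4 (probe set 17629677) was high with both lipids. Its intensity was 1162 in the cholesterol and 705 in the fatty acid library, against 91.3 in OZ serum, 112 in LZ serum, 124 in the high glucose control and 71.4 in the low glucose control. Both lipid libraries lay far above the other four, which sat around the mark of dim signal. Cholesterol was 9.39-fold above the high and 16.3-fold above the low glucose control. Fatty acid was 5.69-fold and 9.87-fold above them, so the size of either fold depends on the control chosen. The lipid libraries differed from each other by 1.65-fold, less than the 1.73-fold between the controls. Lilrb4 belongs to a family of similar receptors, and sharing of probes with its relatives was not examined.

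Tlr2 (probe set 17748289), the lipoprotein receptor, was high with cholesterol. Its intensity was 1003 in the cholesterol and 189.7 in the fatty acid library, against 127 in OZ serum, 159.8 in LZ serum, 180.5 in the high glucose control and 111 in the low glucose control. Cholesterol exceeded the high glucose control 5.56-fold, the low glucose control 9.03-fold and fatty acid 5.29-fold. The fatty acid value was 1.05-fold above the high and 1.71-fold above the low glucose control, where the controls themselves were 1.63-fold apart. Against all 5 other libraries at once, only 1 of 11540 genes had a larger positive difference in the cholesterol library than Tlr2 did.

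Cd68 (probe set 17657767), the lysosomal glycoprotein used to stain macrophages, had an intensity of 331 in the cholesterol and 148 in the fatty acid library. The remaining libraries read 119.7 in OZ serum, 120.2 in LZ serum, 112 in the high glucose control and 109 in the low glucose control. These 4 values sat just above the mark of dim signal and spanned only 1.10-fold, and both lipid libraries lay above them. Cholesterol was 2.94-fold above the high and 3.04-fold above the low glucose control, and 2.24-fold above fatty acid. Fatty acid was 1.32-fold and 1.36-fold above the controls.

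Lgals3 (probe set 17697948), the galectin-3 gene, was bright in every library. Its intensity was 5027 in the cholesterol and 1403 in the fatty acid library, against 1678 in OZ serum, 1756 in LZ serum, 1796 in the high glucose control and 1849 in the low glucose control. The 4 libraries without a purified lipid again spanned 1.10-fold, with cholesterol above and fatty acid below them. Cholesterol was 2.80-fold above the high and 2.72-fold above the low glucose control, and 3.58-fold above fatty acid. Fatty acid was lower than the high glucose control by 1.28-fold and lower than the low glucose control by 1.32-fold.

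Cd14 (probe set 17725716), the lipopolysaccharide co-receptor, differed from the other genes in not reaching 2-fold above both controls with cholesterol. Its intensity was 1121 in the cholesterol and 341 in the fatty acid library, against 618 in OZ serum, 763 in LZ serum, 785 in the high glucose control and 517 in the low glucose control. Cholesterol was the highest library and fatty acid the lowest, as for Lgals3. The cholesterol value was only 1.43-fold above the high glucose control, less than the 1.52-fold between the controls, and it reached 2-fold against the low glucose control alone (2.17-fold). Fatty acid was 2.30-fold below the high and 1.51-fold below the low glucose control. The largest contrast for Cd14 was therefore between the lipids, with cholesterol 3.28-fold above fatty acid. Lgals3 too had its largest contrast there (3.58-fold).

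Counted over both controls, 4 of the 5 genes were at least 2-fold higher in the cholesterol library and none was 2-fold lower, where 0.381% of 11540 genes were higher and 0.806% lower by that rule. Since the genes were chosen for this contrast, the count is a description. The median of the smaller log2 difference was 1.56 for the 5 genes and 0 for all genes. By that difference Lilrb4 ranked 2, Tlr2 5, Cd68 14, Lgals3 19 and Cd14 216 of 11540. In the fatty acid library 1 of the 5 genes, Lilrb4, was 2-fold higher than both controls (0.641% of all genes) and none was 2-fold lower (2.01%). Fatty acid ranks ran from 8 for Lilrb4, through 755 for Cd68 and 3574 for Tlr2, to 10136 for Lgals3 and 10860 for Cd14. Set against fatty acid directly, cholesterol was 2-fold higher for Tlr2, Lgals3, Cd14 and Cd68 (1.92% of all genes) but not for Lilrb4, and none of the 5 was 2-fold lower (0.901%). The 2 lipid comparisons share their controls.

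**Figure D2:**
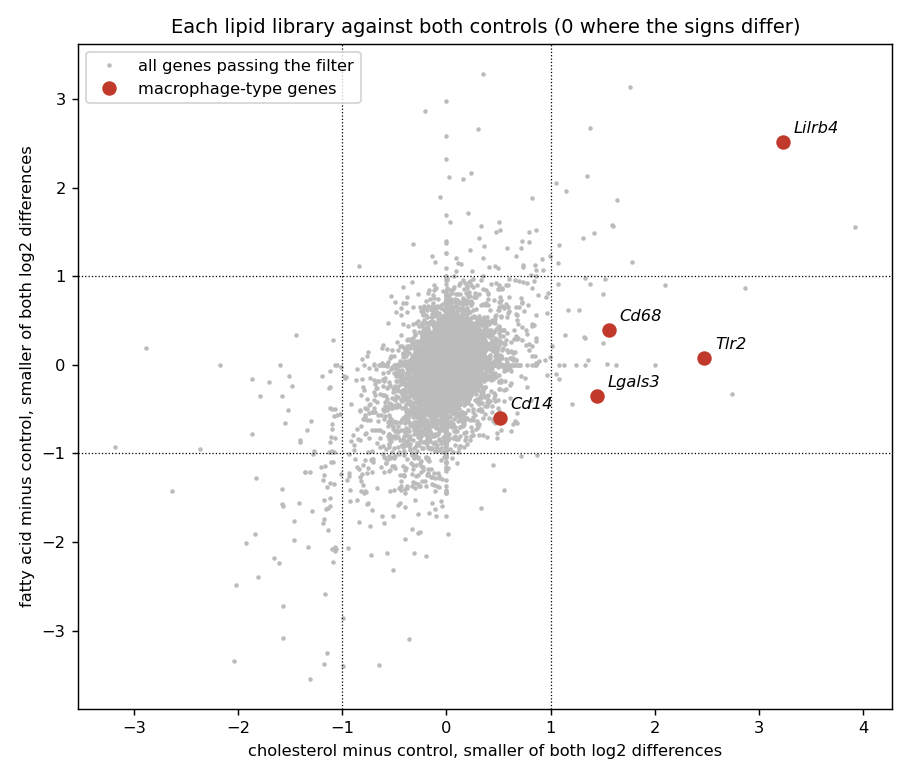
Each gray point is 1 of 11540 genes, placed by the smaller of its log2 differences from both controls in the cholesterol library (horizontal) and in the fatty acid library (vertical), with 0 where the signs differ and dotted lines at 2-fold. Lilrb4 lies at 3.23 and 2.51, Tlr2 at 2.47 and 0.07, Cd68 at 1.56 and 0.40, Lgals3 at 1.44 and -0.36, and Cd14 at 0.51 and -0.60.

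The serum and control libraries, which received no purified lipid, held small differences that Lilrb4, Tlr2 and Cd14 had in common. In each of the 3 genes the order from high to low was high glucose control, LZ serum, OZ serum and low glucose control, an order held by 7.46% of 11540 genes. This order was noticed after the values were seen. The high glucose control exceeded the low glucose control by 0.79 on the log2 scale for Lilrb4, 0.70 for Tlr2 and 0.60 for Cd14, ranks 66, 101 and 167 of 11540. For Cd68 and Lgals3 the same difference was 0.05 and -0.04. OZ serum was below LZ serum by a log2 difference of -0.29 for Lilrb4, -0.33 for Tlr2 and -0.30 for Cd14, against -0.01 for Cd68 and -0.07 for Lgals3. None of the 5 genes reached 2-fold in either pair, where 0.251% of genes were 2-fold higher and 0.104% lower in high than in low glucose, and 0% were higher and 0.026% lower in OZ than in LZ serum. Set together against both controls, the serum libraries had Cd68 higher by 0.09 and Lgals3 at -0.03, the other 3 genes lay between the controls, and 0% of all genes reached 2-fold either way.

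Likeness of pattern was measured by Pearson's r of log2 signal over the 6 libraries, among 864 genes whose signal varied at least 2-fold. With 6 points, r rests mostly on the extreme libraries, usually cholesterol or fatty acid. It often says only that both genes are high with cholesterol, and it is a description. Among the 5 genes, Tlr2 and Cd68 were most alike (0.97), followed by Tlr2 and Lgals3 (0.91) and Cd68 and Lgals3 (0.89). Lilrb4 and Cd14 were least alike (0.10). Without the cholesterol library, over 5 points, Cd68 and Lgals3 ran in opposite directions (-0.99) and so did Lilrb4 and Lgals3 (-0.94), while Lilrb4 and Cd68 stayed close (0.95). These values rest largely on the fatty acid library, the highest of the 5 for Lilrb4 and Cd68 and the lowest for Lgals3. The serum and control libraries spanned only 0.14 on the log2 scale for Cd68 and likewise for Lgals3.

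The genes most like Lilrb4 were Bdkrb2, a bradykinin receptor (0.997), the secreted phospholipase Pla2g2a (0.99), Nxph3 (0.98), Tmem140 (0.98) and Gsap (0.98). Each of them was above both controls with cholesterol, by log2 0.97 to 1.78, and with fatty acid, by 0.81 to 1.16. Those most like Tlr2 were Dnm1, the GTPase dynamin (0.99), Fnip2 (0.99), the growth factor Fgf10 (0.98), Mlana (0.98) and Mylip (0.98). Those most like Cd68 were the cholesterol exporter Abca1 (0.99), Zfp347 (0.99), Fgf10 (0.99), the transcription factor Foxq1 (0.98) and Mylip (0.98). Abca1 read log2 12.27 with cholesterol and 10.28 with fatty acid, against 9.41 and 9.33 in the high and low glucose controls. Lgals3 was closest to Rnf145 (0.99), the secreted Wnt modulator Sfrp2 (0.99), the metalloreductase Steap3 (0.98), Gbp6 (0.98) and the lysosomal channel gene Mcoln3 (0.97). Cd14 was closest to Abca2 (0.98), Clu, which encodes clusterin (0.98), Serinc2 (0.98), Nme3 (0.98) and Faxdc2 (0.97). These last 5 genes were all lower with fatty acid than both controls, by log2 differences from -0.45 to -0.24, and higher with cholesterol by 0.09 to 0.38. Without the cholesterol library, r ran from 0.97 to 0.998 for the genes listed with Lilrb4 and from 0.96 to 0.98 for those with Cd14. It ran from 0.73 to 0.87 with Tlr2, from 0.81 to 0.91 with Cd68 and from 0.52 to 0.78 with Lgals3.

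The defining markers of macrophages and leukocytes were mostly dim, and none was 2-fold from both controls in either lipid library. Such differences were rare among all 11540 genes, at 0.381% higher and 0.806% lower with cholesterol. With fatty acid the shares were 0.641% and 2.01%, so a short list without one is unremarkable. The same shares apply to the lists below. Of 40 listed markers 37 were named on the array, and 25 of these failed the signal filter, among them Ptprc (CD45), Csf1r, Adgre1, Itgam, Cd163, Mrc1, Aif1, Lyz2 and Msr1. Of all named genes 63.5% passed that filter. Ptprc, which marks all leukocytes, read log2 5.42 with cholesterol and 5.53 with fatty acid, against 5.53 in the high and 5.52 in the low glucose control, well below the mark of dim signal at 6.74. Csf1r, the receptor for the macrophage growth factor CSF1, read 6.40 and 6.15 with cholesterol and fatty acid, against 6.11 and 6.18 in those controls. Of the 12 markers that passed, 6 were higher and 2 lower than both controls with cholesterol and 9 were higher and 1 lower with fatty acid, none of them 2-fold. Their largest differences were those of Rac2 (0.41) and Cd74 (0.36) with fatty acid. With cholesterol Rac2 was at 0.06 and Cd74 at -0.16. The shares of all genes were 36.3% higher and 33.6% lower with cholesterol, and 40.4% higher and 39.7% lower with fatty acid. The median log2 difference of the 12 was 0.06 against high and 0.07 against low glucose with cholesterol, and 0.17 and 0.15 with fatty acid, where the medians of all genes ran from -0.003 to 0.01.

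Of the 37 markers only Cd48, an adhesion protein of leukocytes, was bright, at log2 12.46 with cholesterol, 12.21 with fatty acid, 12.41 in OZ serum, 12.35 in LZ serum, 12.53 in the high and 12.25 in the low glucose control. No marker was at 0, since array values hold background. The summed intensity of the 37 was 8789 with cholesterol and 8034 with fatty acid, against 8649 in OZ serum, 8325 in LZ serum, 8990 in the high and 7919 in the low glucose control. Without Cd48, left out after its values were seen, the sums were 3143 and 3283, against 3220, 3115, 3065 and 3060 in the same order. The cholesterol library lay within the range of the other libraries for both sums. Cd48 alone made up 5646 of the 8789 with cholesterol. The sums without it come mostly from dim markers and hold much background. The share of macrophages in the cultures was not tested. Of other lineages, 2 of 9 endothelial, 4 of 11 lymphocyte, 2 of 15 granulocyte and mast cell, and 6 of 9 Schwann cell and adipocyte markers passed the filter (63.5% of all named genes). None of these markers was 2-fold from both controls in either lipid library. Among those that passed, chosen after their values were seen, S100b, known from Schwann cells, read log2 10.35 with cholesterol and 10.22 with fatty acid, against 10.65 and 10.15 in the high and low glucose controls. The endothelial gene Erg read 7.43 with each lipid, against 8.70 in OZ serum, 8.96 in LZ serum, 9.26 in the high and 8.21 in the low glucose control. Egfl7, also endothelial, read 8.44 and 7.99 with cholesterol and fatty acid, against 8.19 and 8.23 in those controls. Their part in the differences of the 5 genes was not tested.

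Among markers of the cultured cells themselves, the mesenchymal genes named here were bright and the myogenic genes varied. Thy1, Vim, Col1a1 and Pdgfrb read log2 13.28, 13.72, 13.36 and 12.67 with cholesterol, whereas the myogenic factors Myf5 and Myod1 and the satellite cell cadherin Cdh15 failed the filter, the only ones of 19 named markers to do so. Pax7, the transcription factor of satellite cells, and Des, which encodes desmin, lay near the mark of dim signal, at 7.02 and 7.05. Other markers of myogenic cells were brighter, with Ncam1 at 12.15, Met at 10.35 and Pax3 at 8.16 with cholesterol. The progenitor marker Cd34 lay nearer that mark, at 7.40 with cholesterol and 6.18 with fatty acid, against 7.68 in the high and 7.01 in the low glucose control. The median of the 16 measured markers was -0.09 and -0.10 against the high and low glucose controls with cholesterol, and -0.42 and -0.44 with fatty acid. The fatty acid library, in which Cd14 and Lgals3 were lowest, thus had 12 of 16 of these markers below both controls (39.7% of all genes) and Ncam1 at -0.90 and Pdgfrb at -0.84. Another 3 were above both controls (40.4% of all genes): Cd44 by 0.46, Pax7 by 0.22 and Des by 0.18. The part of these markers in the low Cd14 and Lgals3 was not tested.

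Of 10 other named Toll-like receptors, 5 passed the filter, and none of these differed 2-fold from both controls in either lipid library. With cholesterol 2 were higher and 1 lower than both controls, and with fatty acid 1 and 3 (36.3% and 33.6% of all genes, and 40.4% and 39.7%), with medians of -0.07 and 0.04 against high and low glucose with cholesterol and -0.16 and -0.34 with fatty acid. Tlr6, a partner of TLR2, read 6.73 with cholesterol and 6.51 with fatty acid, against 7.31 and 7.28 in the high and low glucose controls, so it was lower with both lipids by -0.55 and -0.78. Tlr1, the other partner, failed the filter, at 5.99 and 6.23 against 5.63 and 5.67. Tlr4, the lipopolysaccharide receptor that CD14 serves, read 9.95 and 9.86, against 10.02 and 9.37, and lay between the controls with both lipids. The viral RNA sensor Tlr3 was bright and lower with fatty acid by -0.35. In all 5 measured receptors the cholesterol value exceeded the fatty acid value (51.9% of all genes), by a median of 0.23.

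Among 22 measured accessory and adaptor proteins of these receptors, 14 were higher and 3 lower than both controls with cholesterol, and 12 were higher and 7 lower with fatty acid, none 2-fold (36.3% and 33.6% of all genes with cholesterol, and 40.4% and 39.7% with fatty acid). The medians were 0.10 against each control with cholesterol, and 0.09 and 0.05 against high and low glucose with fatty acid. Ly96, which encodes MD-2, had the largest positive difference with cholesterol (0.59) and read 11.08 with cholesterol and 10.63 with fatty acid, against 10.49 in the high and 10.14 in the low glucose control. Irak3, an inhibitor of the pathway, was higher by 0.50 with cholesterol and 0.41 with fatty acid. The main adaptor Myd88 was nearly level, at 0.11 and 0.03. Lbp, which encodes the serum protein that loads lipopolysaccharide onto CD14, read 8.32 with cholesterol, 6.92 with fatty acid, 7.63 in OZ serum, 8.54 in LZ serum, 7.98 in the high and 6.92 in the low glucose control. Like Cd14, it had the high glucose control above the low, here by over 2-fold, and LZ above OZ serum.

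Genes of NF-kB, the transcription factor that Toll-like receptors activate, were higher with both lipids. With cholesterol 17 of 21 measured feedback and target genes lay above both controls and 1 below (36.3% and 33.6% of all genes), with medians of 0.34 and 0.37 against high and low glucose. With fatty acid 18 lay above and 2 below (40.4% and 39.7%), with medians of 0.34 and 0.32. Only the chemokine Cxcl1 reached 2-fold with cholesterol (1.37), followed by Csf1 (0.93), which encodes the macrophage growth factor, the adhesion molecule Icam1 (0.65) and Nfkbiz (0.58). With fatty acid Cxcl1 (2.67), Nfkbiz (1.31) and Csf1 (1.07) reached it, and Il6 was lower by -0.65. Il1a, a cytokine gene named after its values were seen, failed the filter on its mean and read log2 8.20 with fatty acid, against 6.16 in the high and 6.63 in the low glucose control, a smaller difference of 1.57. With fatty acid, Tlr2 itself lay 0.07 above the high and 0.77 above the low glucose control, against list medians of 0.34 and 0.32. The list overlaps with inflammatory genes that earlier results of these libraries had shown to be high and is not independent evidence.

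**Figure D3:**
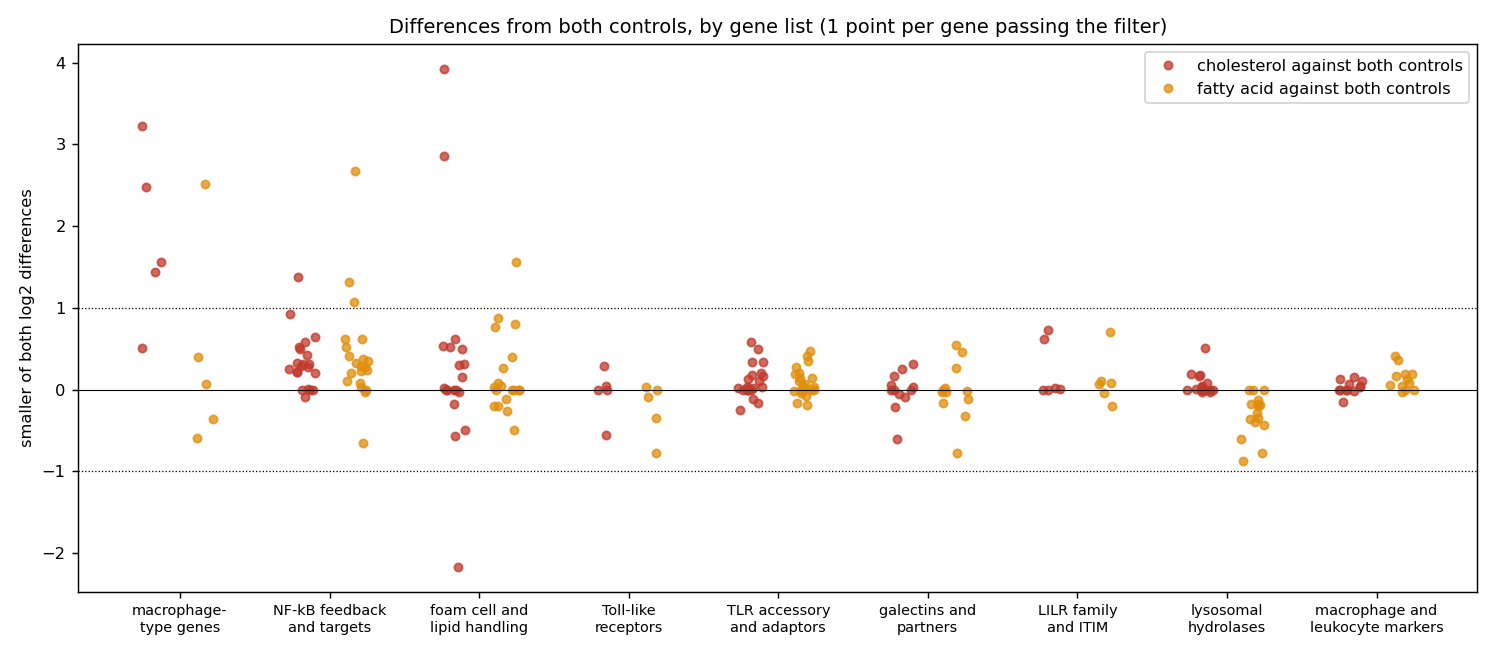
Each point is 1 gene that passed the filter, at the smaller of its log2 differences from both controls (vertical axis; 0 where signs differ), with cholesterol in red to the left and fatty acid in orange to the right within each gene list, and dotted lines at 2-fold. In the lists drawn, and apart from the macrophage-type genes, points beyond 2-fold with cholesterol are Abcg1, Abca1, Cxcl1 and, on the lower side, Olr1, while the macrophage and leukocyte markers lie close to 0.

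Of 19 measured foam cell and lipid-handling genes, 10 were higher and 5 lower than both controls with cholesterol, and 9 and 6 with fatty acid (36.3% and 33.6% of all genes, and 40.4% and 39.7%). Its medians were 0.02 and 0.18 against high and low glucose with cholesterol, and -0.01 and 0.08 with fatty acid. The exporters Abcg1 (3.92) and Abca1 (2.86) were over 2-fold higher with cholesterol, and Abcg1 also with fatty acid (1.56). Olr1, the receptor LOX-1 for oxidised LDL, was 2-fold lower with cholesterol: it read 7.81 with cholesterol and 10.00 with fatty acid, against 10.15 and 9.98 in the high and low glucose controls. Apoe was higher by 0.62, Gpnmb, a glycoprotein of lipid-laden macrophages, by 0.50, and Nr1h3, which encodes the sterol receptor LXR alpha, by 0.53, while the cathepsin gene Ctsk was at -0.57 and the nuclear receptor gene Pparg at -0.50. With fatty acid Abca1 (0.87), Soat1 (0.80), which esterifies cholesterol, and the lipid droplet gene Plin2 (0.76) were higher. Plin2 (0.52) and Soat1 (0.31) were higher with cholesterol as well. Gpnmb was lower with fatty acid (-0.49). Gpnmb therefore shared the extremes of Lgals3 and Cd14, with cholesterol highest (12.91) and fatty acid lowest (11.65), against 12.41 and 12.15 in the controls.

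No other measured galectin was 2-fold from both controls. Of 12 measured galectins and galectin-3 partners, 5 were higher and 4 lower than both controls with cholesterol and 4 and 7 with fatty acid (36.3% and 33.6% of all genes, and 40.4% and 39.7%), none 2-fold. With cholesterol the median was 0.03 against high and -0.02 against low glucose, and with fatty acid it was -0.03 and -0.07. Lgals1, the brightest measured galectin, read 13.71 and 13.50 with cholesterol and fatty acid, against 13.62 and 13.69 in the high and low glucose controls. Lgalsl, also bright, read 10.74 and 11.18, against 11.40 and 11.35. Its smaller difference was -0.61 with cholesterol, the largest of this list, and -0.16 with fatty acid. Lgals8 was bright too, at 9.88 and 9.77. Lgals3bp, which encodes a secreted galectin-3 ligand, was lower with fatty acid (-0.77) and 0.17 above the nearer control with cholesterol. Lgals2 failed the filter on its mean and was singled out after its values were seen. It was over 2-fold higher with cholesterol than in both controls, by 1.35, and read 7.74 with cholesterol and 5.98 with fatty acid, against 6.09 in OZ serum, 6.37 in LZ serum, 6.15 in the high and 6.39 in the low glucose control.

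The relatives of Lilrb4 stayed dim. Lilrb2, Lilrb3, Lilra5 and Lair1 all failed the filter, with cholesterol values of 4.67, 5.51, 6.44 and 5.67. Lilrb3 read 5.68 with fatty acid, against 5.67 and 5.43 in the high and low glucose controls. The phosphatases that inhibitory motifs recruit were nearly level, with Ptpn6 (SHP-1) at 0.01 with cholesterol and 0.07 with fatty acid, and Inpp5d (SHIP1) at 0.02 and 0.08. Another receptor with such motifs, Sirpa, which binds CD47, was higher with both lipids: it read 10.17 and 10.14, against 9.44 and 9.31, a smaller difference of 0.73 and 0.70. Among all 6 measured genes of this list, 4 were higher and 1 lower with cholesterol and 4 and 2 with fatty acid (36.3% and 33.6% of all genes, and 40.4% and 39.7%), with medians from 0.04 to 0.13.

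The lysosome, where CD68 resides, was read through 2 lists. Of 13 measured lysosomal membrane genes, 6 were higher and 3 lower than both controls with cholesterol and 5 and 6 with fatty acid (36.3% and 33.6% of all genes, and 40.4% and 39.7%), none 2-fold, and the medians with cholesterol turned with the control, at -0.11 against high and 0.25 against low glucose. With fatty acid they were -0.20 and 0.01. Lamp1, a relative of Cd68, was 0.26 above the nearer control with cholesterol and at -0.29 with fatty acid, and the calcium channel gene Mcoln1 was at 0.57 and 0.07. Of 16 measured hydrolase genes, 8 were higher and 2 lower with cholesterol (36.3% and 33.6% of all genes), with medians of 0.02 and 0.19.

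In the fatty acid library 13 of the 16 hydrolase genes were below both controls and none above (39.7% and 40.4% of all genes), with medians of -0.42 and -0.25 and none 2-fold. The beta-galactosidase gene Glb1 was at -0.87, Hexa at -0.78, Gusb at -0.60 and the saposin precursor gene Psap at -0.44. Between the lipids, 15 of 16 were higher with cholesterol (51.9% of all genes), by a median of 0.46. Lgals3 and Cd14 also had their lowest value in the fatty acid library, whereas Cd68 was above both controls with each lipid.

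**Figure D4:**
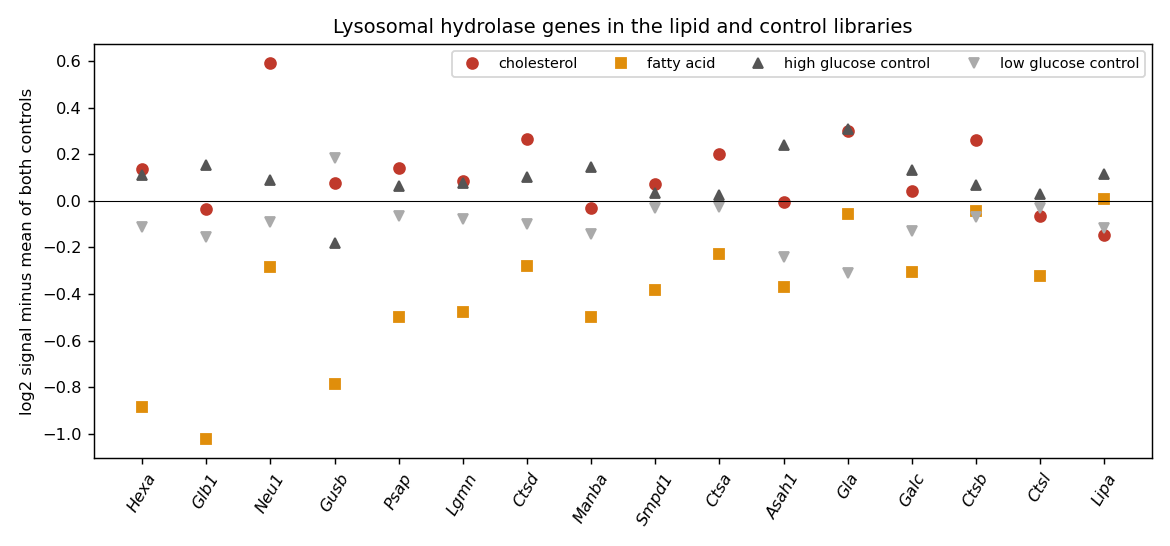
Log2 signal of 16 lysosomal hydrolase genes minus the mean of both controls (vertical axis), with 1 point per library for cholesterol, fatty acid, high glucose control and low glucose control, and genes ordered by cholesterol minus fatty acid. Fatty acid is the lowest point for 13 of the 16 genes, and Lipa is the only gene with fatty acid above cholesterol.

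Of the remaining innate receptors and inflammasome genes, 9 of 17 named passed the filter, with 2 higher and 4 lower than both controls with cholesterol and 2 and 6 with fatty acid (36.3% and 33.6% of all genes, and 40.4% and 39.7%). With cholesterol their median was -0.11 against high and -0.32 against low glucose, and with fatty acid it was -0.23 and -0.34. Casp4, a caspase known in human cells as a sensor of lipopolysaccharide in the cytosol, was 2-fold lower with cholesterol (-1.07) and at -0.82 with fatty acid. Pycard, which encodes the inflammasome adaptor ASC, was highest with cholesterol and lowest with fatty acid, as Lgals3 and Cd14 were. It read 8.70 with cholesterol and 7.61 with fatty acid, against 8.24 and 8.25 in the high and low glucose controls. The fungal sensor Clec7a and Nod2 failed the filter.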

How the data were processed

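Gene expression was read in 6 libraries, 1 array each, grouped by title. The deposited values are linear intensity values, 1 per probe set and array. Per the labels, the arrays were run at a core laboratory. How the authors summarised, background-corrected and scaled the intensity values is not stated in these labels. Values were put on a log2 scale with no offset. In the platform annotation 18511 probe sets carry 1 gene symbol, 575 carry several and 17599 carry none, and only those with 1 entered. Where a gene had several, the probe set with the highest mean stood for it. Genes passed when their mean log2 signal reached the overall median, 6.74. A difference from several libraries is the smallest of the log2 differences when all share a sign and 0 otherwise, and was counted at 2-fold. The 15 gene lists exclude the 5 genes, and a gene can stand in several.

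The genes, lists and comparisons were chosen with earlier results of these data known. Named genes were those at 2-fold, up to 4 with the largest differences per list, defining markers, and the 5 genes most alike in pattern. Alternatives were other scalings, an offset of 32, other filters, a 1.5-fold threshold and each control alone. Tools were Python 3.11.15, numpy 2.4.6, pandas 2.3.3, matplotlib 3.10.9, R 4.3.3 and limma 3.58.1. The number of arrays limits the precision. Promoters are from RefSeq, assembly GRCr8.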

Additional observations from a re-analysis of the deposited data

How the results depend on the processing

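No paired analysis was possible because each group has 1 array. Of 200 values of the 5 genes under cyclic loess, quantile normalization, median centring, an offset of 32, the mean of probe sets and other reference libraries, 198 kept their direction and their side of 2-fold. The other two were both Cd14: at 1.12 with cholesterol against the low glucose control alone and at -1.20 with fatty acid against the high glucose control alone, so that 1 of the 5 genes was then 2-fold lower with fatty acid. Part of the 198 was fixed in advance and says nothing about stability. Each gene has 1 probe set, so the mean of probe sets repeats the main value. A gene 2-fold from both controls is also 2-fold from either control alone and from their mean. Over the scalings and the offset, the cholesterol difference ran from 2.94 to 3.23 for Lilrb4, 2.28 to 2.48 for Tlr2, 1.33 to 1.56 for Cd68, 1.38 to 1.47 for Lgals3 and 0.47 to 0.52 for Cd14. Requiring agreement with the serum libraries as well, added after seeing the data, kept 4 genes with cholesterol and 1 with fatty acid. At 1.5-fold in place of 2-fold, genes of all lists together numbered 8 higher and 4 lower with cholesterol (3 and 2 at 2-fold). With fatty acid they numbered 10 higher and 15 lower (4 and 0). A lower threshold raises counts by construction, but it does not set their balance. With fatty acid the prevailing direction depended on the threshold, higher at 2-fold and lower at 1.5-fold. No scaling moved the median of all genes by over 0.1. Signal limits the folds of Lilrb4, Tlr2 and Cd68, whose control values lie near the median of all values.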
